A study of Homo sapiens with 24 samples.

Results

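Mitochondrially encoded genes were described in RNA-seq counts of LNCaP cells, an androgen-responsive line from a human prostate tumour. The genes were chosen by name, as every feature whose symbol starts with MT-, which gave 37 of the 60649 features counted. They comprise 13 protein genes, 2 rRNA genes and 22 tRNA genes. All 37 lie on the mitochondrial genome, 28 on its plus strand and 9 on its minus strand (GRCh38, GENCODE 29).

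The cells were held in 8 groups of 3 libraries, in 2 studies. In study 1 they carried a construct encoding WDR77-peptide 3 (P3) or the empty vector (EV). In study 2 they were transfected with siRNA against WDR77 (siWDR77) or with a non-targeting control siRNA (siCtrl). WDR77 is a WD-repeat protein that pairs with the arginine methyltransferase PRMT5 and acts on androgen-driven transcription. In all 8 groups the cells were kept in androgen-deprived medium and then given the synthetic androgen R1881 at 5 nM or ethanol vehicle for 48 h. The groups were thus P3_R1881, P3_vehicle, EV_R1881, EV_vehicle, siWDR77_R1881, siWDR77_vehicle, siCtrl_R1881 and siCtrl_vehicle. Transfection was transient in a single cell line, and libraries are named below by the sample number in their titles (S1 to S38).

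The mitochondrial genome is a small circle present in many copies per cell. It is transcribed by its own RNA polymerase, POLRMT, with the DNA-packaging factor TFAM and the initiation factor TFB2M, into long RNAs that cover many genes. Most mRNAs and both rRNAs are flanked by tRNAs, and cutting the tRNAs out at both ends releases them. A few junctions have no tRNA between the mRNAs, among them the one between MT-ND5 and MT-CYB. The proteins are core subunits of respiratory complexes I, III and IV and of ATP synthase, which otherwise consist of nuclear-encoded proteins. The libraries were made from polyadenylated RNA. Mature mitochondrial tRNAs carry no poly(A) tail, and how far the counts on a tRNA gene came from the mature tRNA or from longer RNAs was not tested.

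The sequences the results turn on are shown 5′ to 3′, with the anticodon of each tRNA gene in capitals (GENCODE 29, GRCh38). MT-TY encodes the tRNA for tyrosine, the gene that changed with hormone in all 4 arms, at chrM:5826-5891 on the minus strand. MT-TC, for cysteine, lies next to it at chrM:5761-5826 on the same strand, and the 2 genes share 1 base. MT-TQ, for glutamine, lies at chrM:4329-4400 on the minus strand and had few counts. MT-TE, for glutamate, lies at chrM:14674-14742 on the minus strand beside MT-ND6, and MT-TL1, a tRNA for leucine, at chrM:3230-3304 on the plus strand after MT-RNR2.
MT-TY: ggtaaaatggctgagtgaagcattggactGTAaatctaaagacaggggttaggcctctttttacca
MT-TC: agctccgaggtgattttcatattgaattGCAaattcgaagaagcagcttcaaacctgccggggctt
MT-TQ: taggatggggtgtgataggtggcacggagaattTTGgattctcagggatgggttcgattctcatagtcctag
MT-TE: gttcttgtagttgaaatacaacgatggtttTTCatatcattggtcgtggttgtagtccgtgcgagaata
MT-TL1: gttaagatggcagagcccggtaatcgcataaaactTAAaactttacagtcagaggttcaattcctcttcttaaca

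Genes that abut or overlap limit how far their counts can be told apart, since the strand setting of the counting is not given in the sources used here. MT-ND5 on the plus strand ends at position 14148 and MT-ND6 on the minus strand ends at 14149, so the coding ends meet. Their last 30 bases are shown with the stop codon in capitals. MT-ATP8 and MT-ATP6 share 46 bases, shown with the start codon of MT-ATP6 and the stop codon of MT-ATP8 in capitals, and MT-ND4L and MT-ND4 share 7 bases. Counts on these pairs are uncertain, and not only over the shared bases, since a read can cover parts of both genes. The 3′ untranslated part of MT-ND5 RNA lies opposite MT-ND6, so reads from either could not be separated without strand.
MT-ND5: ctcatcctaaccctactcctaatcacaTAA
MT-ND6: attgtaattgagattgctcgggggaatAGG
MT-ATP8/MT-ATP6: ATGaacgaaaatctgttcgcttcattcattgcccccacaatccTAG

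Depth was 16665915 to 24260446 counts per library. WDR77 stood at 11.3 to 15.6 CPM (counts scaled to the size of the library) in the siWDR77 libraries, against 41.7 to 67.3 CPM in the siCtrl libraries. HOXB13, a marker of the luminal prostate, was present at 432 to 592 CPM, while TP63, KRT5, PTPRC and PECAM1 were at or near 0 (at most 0.107 CPM). Other markers of basal cells and fibroblasts had some counts, KRT14 at 0.226 to 9.79 CPM, COL1A1 at 6.69 to 24.4 CPM, COL3A1 at 0.197 to 8.53 CPM and PDGFRB at up to 1.11 CPM. COL3A1 was lower in every R1881 library than in any vehicle library of its arm, and KRT14 was higher in the R1881 libraries of P3, siWDR77 and siCtrl cells, without overlap. Their part in the results was not tested. One library stood apart, siCtrl_vehicle S35. Its KLK3, the androgen-induced gene of prostate-specific antigen, was at 52.6 CPM, against 203 and 204 CPM in the other libraries of its group. The chi-square per feature of its counts against them was 18.1 and 18.4, where every other pair of the same group had 2.41 to 10.5. Results of study 2 are therefore given with and without it.

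Mitochondrially encoded genes took 5.15% to 6.30% of the counts in 23 libraries and 8.40% in siCtrl_vehicle S35 (95% Wilson interval 8.39% to 8.42%, counting error only). In study 1 the share averaged 5.36 ± 0.181% in P3_R1881 and 5.59 ± 0.0626% in P3_vehicle (SD, n = 3 each). It averaged 5.66 ± 0.305% in EV_R1881 and 6.09 ± 0.177% in EV_vehicle. The 3 P3_vehicle libraries, at 5.52% to 5.63%, lay below the 3 EV_vehicle libraries, at 5.98% to 6.30%. The P3_R1881 libraries, at 5.15% to 5.48%, overlapped those of EV_R1881, at 5.43% to 6.00%. In study 2 the share averaged 5.62 ± 0.253% in siWDR77_R1881 and 5.89 ± 0.162% in siWDR77_vehicle. It averaged 5.64 ± 0.193% in siCtrl_R1881 and 6.55 ± 1.62% in siCtrl_vehicle. The other 2 siCtrl_vehicle libraries stood at 5.39% and 5.85%, beside 5.45% to 5.84% in the siCtrl_R1881 libraries. A share of counts is relative: less mitochondrial RNA per cell, fewer mitochondrial genomes per cell and more of other RNA cannot be told apart in it.

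**Figure D1:**
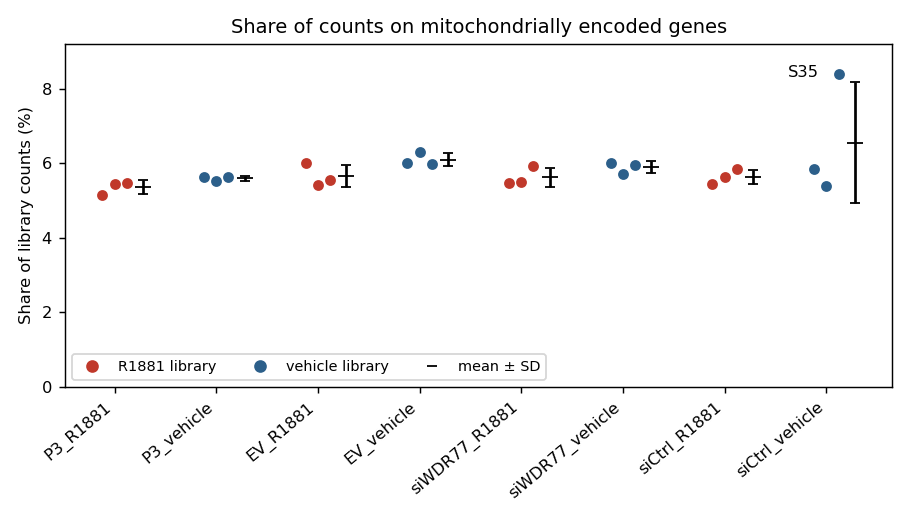
Share of library counts (%) on the 37 mitochondrially encoded genes, 1 point per library in 8 groups, with mean ± SD at the right of each group (n = 3). The library siCtrl_vehicle S35 stands at 8.40%, and the other 23 libraries lie between 5.15% and 6.30%.

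The counts were spread over a wide range of levels, given here as CPM per kilobase of gene to allow for gene length. This measure takes no account of reads that cover overlapping genes. MT-RNR2, the large rRNA of the mitochondrial ribosome, had group means of 6185 to 10550. MT-CO3 and MT-CO1, core subunits of cytochrome c oxidase, had 6782 to 8360 and 6424 to 8053. MT-RNR2 had the highest group mean of these genes in the 4 groups of study 2, and MT-CO3 and MT-CO1 were both above it in the 4 groups of study 1. MT-CO3 and MT-CO1 could not be ranked, since MT-CO3 was the higher in 14 of 24 libraries. MT-CO2, the third such subunit, stood at 5221 to 6492 and MT-ATP6, a membrane subunit of ATP synthase, at 4689 to 6542. MT-CO2 was above MT-ATP6 in 22 of 24 libraries.

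The complex I genes fell below these and differed among themselves. MT-ND4 had group means of 3749 to 5692 CPM per kilobase, above MT-CYB, the mitochondrial subunit of complex III, at 2348 to 3199, in 24 of 24 libraries. MT-ND1 stood at 2261 to 2714, MT-ND4L at 1765 to 2419 and MT-ND2 at 1666 to 2353. MT-ND5 stood at 963 to 1604, MT-ND6 at 856 to 1509 and MT-ND3 at 1097 to 1303. MT-RNR1, the small rRNA, was at 1947 to 2503, well under MT-RNR2, which was the higher in 24 of 24 libraries. MT-ATP8 was the lowest protein gene by this measure, at 286 to 370. How far reads that also cover MT-ATP6 or MT-ND4 affected the counts of MT-ATP8 and MT-ND4L was not tested.

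Counts on tRNA genes made up 0.293% to 0.448% of the mitochondrial counts. The highest were MT-TC at 819 to 1332 CPM per kilobase, MT-TP (proline) at 405 to 574, MT-TL1 at 339 to 468, MT-TN (asparagine) at 251 to 430 and MT-TY at 160 to 331. All of these but MT-TL1 lie on the minus strand. The other tRNA genes had group means of at most 81.2 CPM per kilobase. The tRNA genes MT-TA (alanine), MT-TF (phenylalanine), MT-TW (tryptophan) and MT-TS2 (a tRNA for serine) had at most 19 counts in any library and failed the filter on low counts. The tests therefore ran on 33 genes in each study, among them all protein and rRNA genes and 18 tRNA genes. Before alternative fits, MT-TV, MT-TI, MT-TM, MT-TN, MT-TS1, MT-TD, MT-TK, MT-TG, MT-TR, MT-TH, MT-TL2 and MT-TT had no call in any comparison.

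The rRNAs made up 20.5% to 23.6% of mitochondrial counts in the libraries of study 1 and 24.7% to 32.0% in those of study 2. The study and the kind of transfection cannot be told apart in this difference. Minus-strand genes made up 1.0% to 1.67% of mitochondrial counts, and MT-ND6 gave most of these. The lowest minus-strand shares, 1.0% and 1.08%, were in siWDR77_vehicle S37 and S9, which are taken up below.

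Androgen was tested first, as R1881 against vehicle in each arm. MT-TY was the one mitochondrially encoded gene that fell in all 4 arms. It stood at 12.6, 14.1 and 12.9 CPM in P3_R1881, against 16.4, 17.2 and 17.9 CPM in P3_vehicle. In EV cells it was at 16.6, 14.8 and 12.1 CPM with R1881, against 23.2, 19.5 and 22.95 CPM in vehicle. Every R1881 library lay below every vehicle library in both arms.

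In siWDR77 cells MT-TY was at 11.5, 10.5 and 12.2 CPM with R1881, against 14.96, 18.8 and 18.3 CPM in vehicle. In siCtrl cells it was at 12.3, 9.90 and 9.61 CPM with R1881, against 15.9, 15.7 and 14.2 CPM in vehicle. The groups did not overlap in these arms either. The gene had 151 to 477 counts per library.

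The log2 fold change of MT-TY with R1881 was -0.38 ± 0.11 in P3 cells (SE, edgeR adjusted p = 0.00931) and -0.58 ± 0.11 in EV cells (edgeR adjusted p = 1.83e-05). It was -0.60 ± 0.12 in siWDR77 cells (edgeR adjusted p = 0.000195) and -0.52 ± 0.13 in siCtrl cells (edgeR adjusted p = 0.0011). Fitted folds were 0.767 in P3, 0.668 in EV, 0.659 in siWDR77 and 0.696 in siCtrl cells. The difference in response was 0.20 ± 0.16 between P3 and EV (edgeR adjusted p = 0.408) and -0.08 ± 0.18 between siWDR77 and siCtrl (edgeR adjusted p = 0.947). The call was kept in each of the 4 arms under every scaling, filter and tool tried and without each of the 12 libraries of its study in turn.

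**Figure D2:**
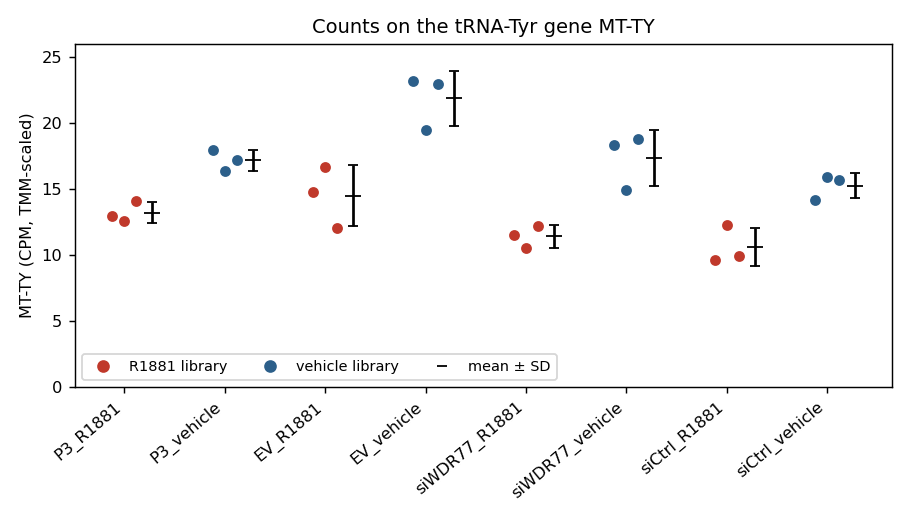
Level of the tRNA-Tyr gene MT-TY in CPM scaled within each study, 1 point per library in 8 groups, with mean ± SD at the right of each group (n = 3). The R1881 libraries lie below the vehicle libraries of their arm, for example 10.5 to 12.2 CPM against 14.96 to 18.8 CPM in siWDR77 cells.

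The fall was also present within the mitochondrial counts, where the scaling of libraries plays no part. MT-TY made up 0.0249 ± 0.00146% of mitochondrial counts in P3_R1881 and 0.0330 ± 0.00194% in P3_vehicle (SD, n = 3 each). In EV cells it made up 0.0232 ± 0.00417% with R1881 and 0.0366 ± 0.00463% in vehicle. In siWDR77 cells the shares were 0.0182 ± 0.00103% with R1881 and 0.0325 ± 0.00301% in vehicle. In siCtrl cells they were 0.0172 ± 0.00239% with R1881 and 0.0265 ± 0.00620% in vehicle. The groups did not overlap in any arm, although siCtrl_vehicle S35, at 0.0200%, was close to siCtrl_R1881 S22, at 0.0199%.

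The tRNA genes MT-TC and MT-TN, on the same strand next to MT-TY, had negative values in all 4 arms but few calls. MT-CO1, the next gene on its other side and on the plus strand, had positive values in 4 of 4 arms and no call, though with unscaled sizes it was lower in EV cells (-0.14) and without S35 higher in siCtrl cells (0.21). MT-TC fell in EV cells, by 0.42 ± 0.16 on the log2 scale (edgeR adjusted p = 0.0465). It stood there at 64.2, 56.8 and 58.7 CPM with R1881, against 80.8, 92.7 and 66.9 CPM in vehicle, with no overlap. That call was lost in 9 of the 12 fits that left out 1 library, with the RLE scaling and with the block for the run of sample numbers. Its log2 fold change was -0.27 ± 0.16 in P3, -0.16 ± 0.24 in siWDR77 and -0.19 ± 0.24 in siCtrl cells, where it was not called. MT-TN had log2 fold changes of -0.20 ± 0.37 in P3, -0.37 ± 0.36 in EV, -0.12 ± 0.24 in siWDR77 and -0.10 ± 0.24 in siCtrl cells, with no call. MT-TL1, on the other strand, fell in EV cells by 0.26 ± 0.091 on the log2 scale (edgeR adjusted p = 0.0148). That call was lost without EV_vehicle S15, EV_R1881 S16 or EV_R1881 S30. MT-TL1 also had negative values in the other arms, so such values were not particular to the strand of MT-TY. They were -0.21 ± 0.092 in P3, -0.01 ± 0.10 in siWDR77 and -0.08 ± 0.10 in siCtrl cells, with no call. MT-TP, on the same strand as MT-TY, had positive values in 4 of 4 arms.

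In EV cells R1881 changed 8 of the 33 tested mitochondrial genes, where 51.4% of all tested features were called. The 5 that rose were complex I genes MT-ND4, MT-ND5 and MT-ND6, the complex III gene MT-CYB and the tRNA gene MT-TP, all toward the end of the plus-strand transcript or opposite it. The 3 that fell were MT-TY, MT-TC and MT-TL1. Higher calls made up 24.9% and lower calls 26.4% of all features. The median log2 fold change was 0.03 over the 33 genes and -0.04 over all features tested.

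MT-ND5 stood at 2824, 3064 and 2830 CPM in EV_R1881, against 2469, 2501 and 2453 CPM in EV_vehicle. Its log2 fold change was 0.23 ± 0.046 (edgeR adjusted p = 4.8e-05). MT-ND4 had 7247, 8431 and 7854 CPM in EV_R1881, against 6687, 6825 and 6880 CPM in EV_vehicle, a log2 fold change of 0.21 ± 0.048 (edgeR adjusted p = 0.000388). Neither pair of groups overlapped. MT-ND6 rose by 0.19 ± 0.047 (edgeR adjusted p = 0.000749), MT-TP by 0.24 ± 0.084 (edgeR adjusted p = 0.0169) and MT-CYB by 0.15 ± 0.051 (edgeR adjusted p = 0.0105), all on the log2 scale.

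These rises depended on the scaling of libraries. With unscaled library sizes, which moved the median of all features by -0.17 on the log2 scale, 0 of the 33 genes were higher and 9 lower. Of all 17772 features tested, 10021 were called in that fit. The median of the 33 genes was then -0.14, beside -0.21 over all features. MT-ND5 had 0.06 and MT-CYB -0.016. The 9 were MT-TY, MT-TC, MT-TL1, both rRNAs, MT-ND1, MT-CO1, MT-CO2 and MT-CO3. With scaled sizes no mRNA gene was called in EV cells beyond MT-ND4, MT-ND5, MT-ND6 and MT-CYB. The remaining ones then lay between -0.18 for MT-ND3 and 0.10 for MT-ND2.

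In P3 cells R1881 changed 1 of the 33 genes, MT-TY, where 21% of all tested features were called and 7.96% were called lower. The median log2 fold change was 0.0025 over the 33 genes and -0.02 over all features. The 13 protein genes had log2 fold changes of -0.11 to 0.12, with MT-ND6 highest at 0.12 ± 0.047 (edgeR adjusted p = 0.0696). With unscaled sizes, which moved the median of all features by -0.09, 0 were higher and 3 lower, MT-TY, MT-TL1 and MT-CO3. Of all 17772 features tested, 4536 were called in that fit.

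In siWDR77 cells R1881 changed 5 of the 33 genes, where 53.2% of all tested features were called, 27.7% higher and 25.5% lower. The median log2 fold change was 0.21 over the 33 genes and -0.02 over all features. MT-ND5, MT-ND6, MT-TE and MT-TQ rose, and MT-TY fell. Without siCtrl_vehicle S35, which lies in the other arm but shares the estimate of the spread, 13 were higher and 2 lower. Without siCtrl_vehicle S21, 9 were called in all. Over all features, 9879 of 18444 were called without S35 and 9615 of 18444 without S21. The added rises without S35 were MT-RNR1, MT-RNR2, MT-ND2, MT-CO2, MT-ATP6, MT-ND4L, MT-ND4, MT-CYB and MT-TP, and MT-ND3 was lower. MT-ND4 then had 0.35 (edgeR adjusted p = 1.98e-05), where with S35 it had 0.38 ± 0.18 (edgeR adjusted p = 0.119). With unscaled sizes, which moved the median of all features by -0.30, 1 was higher and 6 lower, where 10871 of 17893 features were called.

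In siCtrl cells R1881 changed 2 of the 33 genes, MT-TY and MT-TQ, both lower, where 51.1% of all tested features were called and 25.4% were called lower. The median log2 fold change was 0.04 over the 33 genes and -0.04 over all features. The protein genes lay between -0.07 and 0.18 on the log2 scale. Without siCtrl_vehicle S35, 11 genes were higher and 2 lower, where 8856 of 18444 features were called. Both rRNAs, MT-ND2, MT-CO1, MT-CO2, MT-ATP6, MT-CO3, MT-ND4L, MT-ND4, MT-CYB and MT-TP were then higher. MT-TY and MT-TT, the tRNA gene for threonine, were lower, and MT-TQ was no longer called. MT-ND4 had a log2 fold change of 0.43 (edgeR adjusted p = 7.2e-06) and MT-RNR2 of 0.30 (edgeR adjusted p = 0.00208), where with S35 they had 0.16 ± 0.18 (edgeR adjusted p = 0.509) and -0.08 ± 0.24 (edgeR adjusted p = 0.816). With all libraries but unscaled sizes, which moved the median of all features by -0.26, 0 were higher and 9 lower. In that fit 10479 of 17893 features were called.

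**Figure D3:**
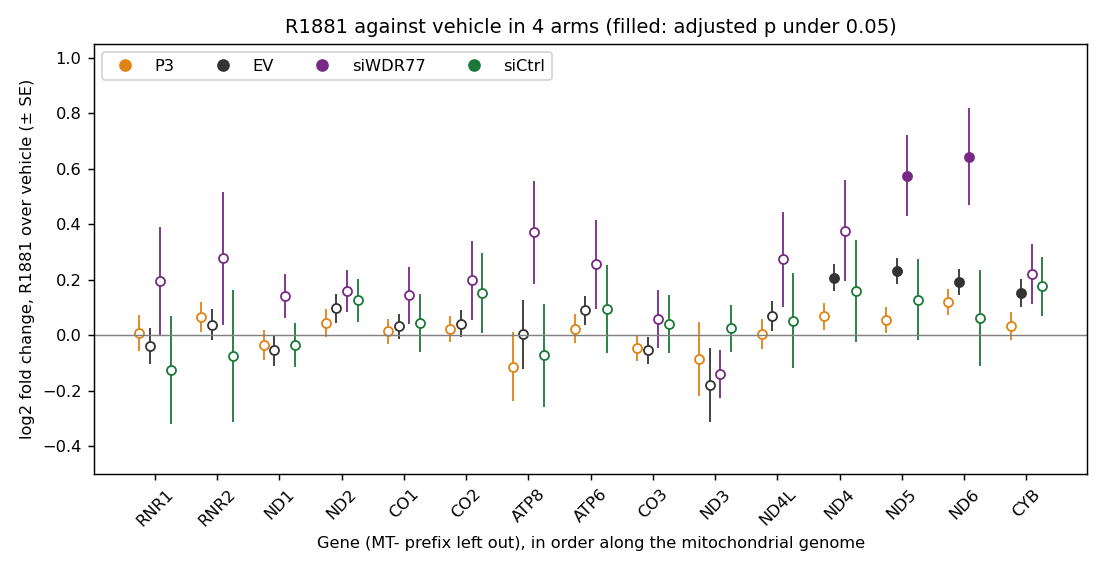
Log2 fold change of R1881 over vehicle (± SE) for the 2 rRNA and 13 protein genes in order along the mitochondrial genome, in 4 arms of 3 against 3 libraries, with filled points for an adjusted p under 0.05. The filled points are MT-ND4, MT-ND5, MT-ND6 and MT-CYB in EV cells, at 0.15 to 0.23, and MT-ND5 and MT-ND6 in siWDR77 cells, at 0.57 and 0.64.

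Within the mitochondrial counts, MT-ND4 took a larger share with R1881 in all 4 arms, with no overlap between groups. It made up 11.9 ± 0.0194% in P3_R1881 and 11.5 ± 0.174% in P3_vehicle (SD, n = 3 each), and 12.5 ± 0.374% in EV_R1881 and 11.3 ± 0.405% in EV_vehicle. In study 2 it made up 10.7 ± 0.364% in siWDR77_R1881 and 9.70 ± 0.405% in siWDR77_vehicle, and 11.5 ± 0.128% in siCtrl_R1881 and 10.5 ± 0.497% in siCtrl_vehicle. Without S35 the log2 ratio in siCtrl cells was 0.16, against 0.13 with it. As a share of the counts on protein genes alone, MT-ND4 was again higher with no overlap in P3, EV and siWDR77 cells. The siCtrl groups overlapped on that base, at 15.6 ± 0.285% with R1881 and 14.7 ± 1.27% in vehicle.

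MT-CO3 took a smaller share with R1881 in 3 arms, again with no overlap. Its share was 10.01 ± 0.246% in P3_R1881 and 10.5 ± 0.166% in P3_vehicle, and 10.1 ± 0.154% in EV_R1881 and 10.9 ± 0.209% in EV_vehicle. It was 9.61 ± 0.455% in siWDR77_R1881 and 10.8 ± 0.408% in siWDR77_vehicle. The siCtrl groups overlapped, at 9.37 ± 0.218% with R1881 and 9.48 ± 0.653% in vehicle. Both genes lie on the plus strand and are transcribed together, so these shares describe unequal change among the RNAs and not which of them changed. A lack of overlap was not particular to MT-TY, MT-ND4 and MT-CO3, and no test was made of the shares. MT-CYB was above vehicle without overlap in EV and siCtrl cells and MT-TP in EV and P3 cells. MT-TL1 was below vehicle without overlap in EV and siWDR77 cells.

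The P3 construct was compared with the empty vector next. Most protein genes were lower in P3 cells in both media, and few or no tRNA genes were called. In R1881, 12 of the 33 genes were lower and 0 higher, where 37% of all tested features were called, 18.1% higher and 18.9% lower. These were 11 of the 13 protein genes, all but MT-ATP8 and MT-ND3, and MT-RNR2. In vehicle, 14 of the 33 were lower and 0 higher, where 15.8% of all features were called, 7.93% higher and 7.88% lower. These were 10 of the 13 protein genes, all but MT-ATP8, MT-ND3 and MT-ND4L, both rRNAs, MT-TL1 and MT-TY. In vehicle the 18 tested tRNA genes lay between -0.50 and 0.37 on the log2 scale. In R1881, where 0 of them were called, they lay between -0.41 and 0.08. Their median was -0.19 in both media, beside -0.18 in vehicle and -0.25 in R1881 for the protein genes. Several had a large SE, such as MT-TV at -0.42 ± 0.21 in vehicle. The lack of calls thus does not show that the tRNA genes were unchanged. Without any 1 of the EV_vehicle libraries S1, S15 and S29, 9 of the mitochondrial genes were called in vehicle. Over all features, 1709 of 18476, 1825 of 18332 and 1949 of 18464 were called in those fits. Beside this, NEAT1, a nuclear-retained RNA, was higher in P3_vehicle than in EV_vehicle by 1.24 ± 0.15 on the log2 scale (edgeR adjusted p = 0.00108), and its part in the result was not tested.

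The median log2 fold change over the 33 genes was -0.20 in R1881, beside 0.03 over all features, and -0.19 in vehicle, beside -0.02 over all features. The libraries of the 2 media were separate. With unscaled sizes the median of all features moved by 0.16 in R1881 and by 0.08 in vehicle. Of the 33 genes, 5 were then lower in R1881 and 6 in vehicle. Of all 17772 features tested, 7342 were called in R1881 and 2489 in vehicle. MT-ATP6, MT-ND6 and MT-CYB were among the lower genes in both media under that scaling too.

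MT-CYB stood at 2977, 3009 and 2608 CPM in P3_R1881, against 3449, 3884 and 3617 CPM in EV_R1881. Its log2 fold change was -0.35 ± 0.051 (edgeR adjusted p = 3.94e-07), and the groups did not overlap. In vehicle it stood at 2809, 2859 and 2724 CPM in P3 cells, against 3242, 3377 and 3231 CPM in EV cells, a log2 fold change of -0.23 ± 0.051 (edgeR adjusted p = 0.00142), again with no overlap.

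MT-ND5 stood at 2387, 2373 and 2173 CPM in P3_R1881, against 2824, 3064 and 2830 CPM in EV_R1881, with a log2 fold change of -0.33 ± 0.047 (edgeR adjusted p = 2.13e-07). In vehicle it was at 2268, 2218 and 2194 CPM in P3 cells, against 2469, 2501 and 2453 CPM in EV cells, with a log2 fold change of -0.15 ± 0.046 (edgeR adjusted p = 0.021). The groups did not overlap in either medium. The vehicle call was lost with unscaled sizes, without P3_vehicle S33 and without any 1 of the EV_vehicle libraries.

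MT-CO3 stood at 5582, 5596 and 5295 CPM in P3_vehicle, against 6537, 6667 and 6458 CPM in EV_vehicle. It had the smallest adjusted p among the mitochondrial genes in vehicle, with a log2 fold change of -0.26 ± 0.047 (edgeR adjusted p = 0.000208). In R1881 it was at -0.25 ± 0.047 (edgeR adjusted p = 5.15e-05). MT-ATP6 was lower by similar amounts, at -0.32 ± 0.053 in R1881 (edgeR adjusted p = 7.14e-06) and -0.25 ± 0.053 in vehicle (edgeR adjusted p = 0.00113). The other called protein genes had log2 fold changes of -0.32 (MT-ND4) to -0.16 (MT-ND1) in R1881 and of -0.23 (MT-CO2) to -0.17 (MT-CO1) in vehicle.

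**Figure D4:**
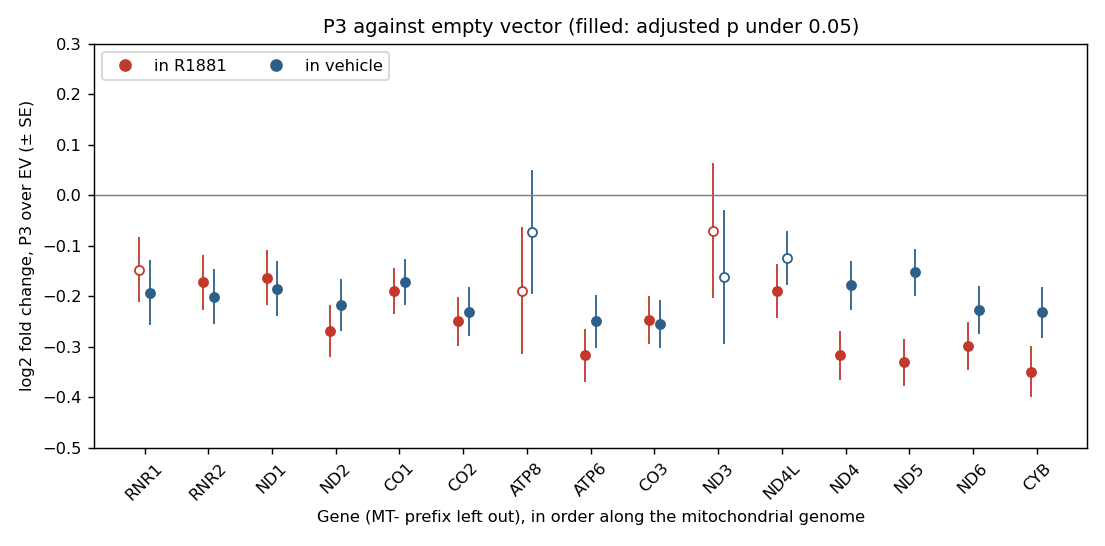
Log2 fold change of P3 over EV (± SE) for the 2 rRNA and 13 protein genes in order along the mitochondrial genome, in R1881 and in vehicle, 3 against 3 libraries each, with filled points for an adjusted p under 0.05. All 30 values are negative, from -0.35 for MT-CYB in R1881 to -0.07 for MT-ND3 in R1881 and MT-ATP8 in vehicle.

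Nuclear-encoded partners of these proteins were counted beside them. In R1881, where 18.9% of all features were lower, 1 of 18 tested ATP synthase genes was higher and 1 lower, and 1 of 13 nuclear cytochrome c oxidase genes was lower. In vehicle, where 7.88% of all features were lower, 11 of the 18 ATP synthase genes and 4 of the 13 oxidase genes were lower and none higher. The difference between the media was not tested for these counts. The ATP synthase genes ATP5F1A and ATP5F1B, which encode the catalytic head, were at -0.23 ± 0.047 (edgeR adjusted p = 0.000467) and -0.22 ± 0.050 (edgeR adjusted p = 0.00163) in vehicle. COX4I1 and COX6C, structural subunits of the oxidase, were at -0.25 ± 0.056 (edgeR adjusted p = 0.00155) and -0.32 ± 0.069 (edgeR adjusted p = 0.00165). In R1881 the higher one was ATP5IF1, the inhibitor of ATP synthase, at 0.23 ± 0.065 (edgeR adjusted p = 0.00469). With R1881 against vehicle, where 21% of all features were called in P3, 51.4% in EV, 53.2% in siWDR77 and 51.1% in siCtrl cells, 0 of the 18 ATP synthase genes were called in P3 cells, 10 were lower in EV cells, 3 were higher and 3 lower in siWDR77 cells, and 5 higher and 3 lower in siCtrl cells. Of the 13 oxidase genes, 0 were called in P3 cells, 1 was higher and 3 lower in EV cells, 2 higher and 1 lower in siWDR77 cells, and 3 higher and 0 lower in siCtrl cells.

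The response to R1881 differed between P3 and EV cells for 1 of the 33 genes, where 22.6% of all tested features were called and 11.1% were called lower. MT-ND5 responded less in P3 cells, by -0.18 ± 0.066 on the log2 scale (edgeR adjusted p = 0.0448). Its own log2 fold changes with R1881 were 0.05 ± 0.046 in P3 cells and 0.23 ± 0.046 in EV cells. The call was lost with unscaled sizes, without the filter on low counts, and without EV_vehicle S15, P3_vehicle S19 or P3_R1881 S6.

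Knockdown of WDR77 was compared with the control siRNA in each medium. In R1881, 0 of the 33 genes were called by edgeR, where 7.22% of all tested features were, 3.9% higher and 3.31% lower. By unadjusted p under 0.05 there were 2, and DESeq2 called 0. Without siCtrl_vehicle S35, edgeR again called 0 of the 33, with 8 by unadjusted p under 0.05, where 1983 of 18444 features were called. The protein genes lay between -0.15 for MT-ND3 and 0.15 for MT-ATP8. In vehicle, 1 of the 33 was lower, MT-TQ, where 1.53% of all features were called and 0.844% were called lower. Without siCtrl_vehicle S35, MT-TQ was no longer called and MT-CO3 was higher by 0.21 on the log2 scale (edgeR adjusted p = 0.0471), where with S35 it had 0.03 ± 0.11 (edgeR adjusted p = 0.945). In that vehicle fit without S35, 478 of 18444 features were called. The response to R1881 differed between siWDR77 and siCtrl cells for 0 of the 33 genes by edgeR and by DESeq2. By unadjusted p under 0.05 there were 3, and 5 without S35. Over all tested features edgeR called 0 and DESeq2 54. The edgeR count was 16 with the block for the run of sample numbers, 43 without S35 and 112 without the filter on low counts.

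MT-TQ had counts so low that each is given. It had 21, 13 and 15 counts in siWDR77_R1881, against 5, 4 and 5 counts in siWDR77_vehicle. In siCtrl cells it had 6, 6 and 5 counts with R1881, against 14, 30 and 18 counts in vehicle. It thus rose with R1881 by 1.94 ± 0.50 on the log2 scale in siWDR77 cells (edgeR adjusted p = 0.00218) and fell by 1.503 ± 0.48 in siCtrl cells (edgeR adjusted p = 0.0113). The difference between those responses was 3.44 ± 0.70 (edgeR adjusted p = 0.0888), past the threshold in the fit without the filter on low counts. In vehicle it was lower in siWDR77 than in siCtrl cells by -2.11 ± 0.49 (edgeR adjusted p = 0.0266), a call lost with DESeq2, without S35 and without any 1 of the siWDR77_vehicle libraries S23, S37 and S9. In study 1 it had 6 to 16 counts per library and no call. MT-TQ overlaps MT-TI, the tRNA gene for isoleucine on the other strand, by 3 bases.

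Beside the rises of MT-ND5, MT-ND6 and MT-TE in siWDR77 cells, 2 of the 3 vehicle libraries had low values. MT-ND5 stood at 2613, 2518 and 2662 CPM in siWDR77_R1881, against 2160 CPM in siWDR77_vehicle S23, 1444 in S37 and 1629 in S9. MT-ND6 stood at 718, 684 and 704 CPM in siWDR77_R1881, against 583 CPM in S23, 363 in S37 and 401 in S9. MT-TE stood at 4.83, 4.404 and 4.64 CPM in siWDR77_R1881, against 4.2, 2.502 and 2.88 CPM in the same vehicle libraries. With R1881 each gene was above its level in every vehicle library, and S37 and S9 were the low ones each time.

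The log2 fold changes were 0.57 ± 0.15 for MT-ND5 (edgeR adjusted p = 0.00788), 0.64 ± 0.17 for MT-ND6 (edgeR adjusted p = 0.0125) and 0.52 ± 0.21 for MT-TE (edgeR adjusted p = 0.0406). The calls of MT-ND5 and MT-ND6 were lost with unscaled sizes. That of MT-TE was lost with unscaled sizes, with scaling from the other features, without the filter on low counts, with DESeq2 and in 5 of the 12 fits that left out 1 library.

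Beside S23, the low stretch began and ended between neighbouring genes. MT-ND4 before it was at 4975, 5027 and 5496 CPM in siWDR77_vehicle S23, S37 and S9. MT-CYB after it was at 2559, 2723 and 2757 CPM, so neither was lower in S37 or S9 than in S23. In each of these vehicle libraries both genes were below their siWDR77_R1881 means, 6710 ± 483 and 3122 ± 49.9 CPM (SD, n = 3). The ratio of MT-ND5 to MT-CYB counts was 0.530 in S37 and 0.591 in S9, where the other 22 libraries had 0.741 to 0.891. The ratio of MT-ND5 to MT-ND4 counts was 0.287 and 0.296, where the other 22 had 0.334 to 0.439. The ratio of MT-ND6 to MT-ND5 counts was 0.252 in S37 and 0.246 in S9, just under the 0.263 to 0.313 of the other libraries. KLK3 stood at 206 CPM in S37 and 109 CPM in S9, against 188 CPM in S23, so only S9 was low in it. Its part in the result was not tested.

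**Figure D5:**
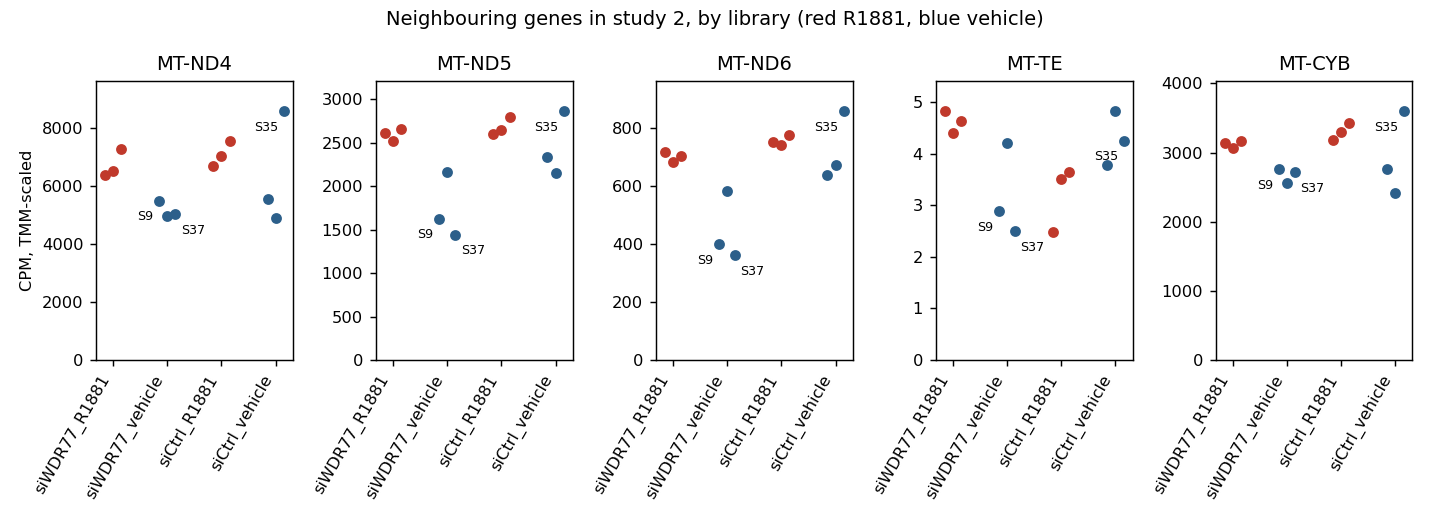
Levels in CPM, scaled within study 2, of 5 genes in order along the mitochondrial genome, 1 point per library in 4 groups of 3. Beside S23 of their group, siWDR77_vehicle S9 and S37 are low for MT-ND5, MT-ND6 and MT-TE, but not for MT-ND4 and MT-CYB. MT-ND5, for example, is at 1629 and 1444 CPM in them.

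The raised share of siCtrl_vehicle S35 was spread over most of the mitochondrial genes, but unevenly. Of the 33 tested genes, 26 were highest in S35 among the 3 libraries of its group, and the median ratio to the mean of the other 2 was 1.39. MT-RNR2 stood at 21860 CPM in S35, against 11820 CPM in S21 and 10980 CPM in S7, a ratio of 1.92. MT-RNR1 had a ratio of 1.70, MT-ND4 of 1.64, MT-ATP6 of 1.53 and MT-CO2 of 1.503. The smallest ratios among the mRNA genes were 1.22 for MT-ND3, 1.249 for MT-ND2, 1.251 for MT-ND1 and 1.28 for MT-ND5.

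Among tRNA genes, MT-TP at 1.85 and MT-TN at 1.69 were raised in S35, MT-TY at 1.04 and MT-TE at 0.988 were close to the other libraries, and MT-TT at 0.581 and MT-TR (arginine) at 0.767 were lower. No other library of the 24 was highest of its 3 in more than 18 of the genes. Beside this, FKBP5, an androgen-induced co-chaperone gene, was at 26.6 CPM in S35, against 42.4 and 39.3 CPM in S21 and S7. The nuclear-retained RNA NEAT1 was at 719 CPM, against 414 and 461 CPM, and MALAT1 at 1284 CPM, against 953 and 1079 CPM. Of 3 tested nuclear-retained or non-polyadenylated RNAs, 0 were called with R1881 in P3 or siCtrl cells, 2 were higher in EV cells (NEAT1 and MALAT1) and 1 in siWDR77 cells (NEAT1). Over all tested features R1881 called 21% in P3, 51.4% in EV, 53.2% in siWDR77 and 51.1% in siCtrl cells. These counts are therefore no result about the list. The part that androgen-induced genes or nuclear RNA have in the raised share was not tested.

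Copies of mitochondrial genes in the nuclear genome can take mitochondrial reads. The 18 such features in the table had 0.199 to 0.457 counts per 100 mitochondrial counts, 0.358 in S35. Of the 8 that were tested, 1 was called in 1 of the 10 comparisons, MTND2P28, lower in P3_R1881 than in EV_R1881 by -0.56 ± 0.19 (edgeR adjusted p = 0.0153). In that comparison 37% of all tested features were called, 18.9% lower. With so few genes this count is no result about the copies.

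Nuclear genes that act on mitochondrial DNA and RNA are given as context. Over all tested features R1881 called 21% in P3, 51.4% in EV, 53.2% in siWDR77 and 51.1% in siCtrl cells, so the counts below are no result about these lists. Of 16 genes of mitochondrial DNA maintenance and transcription, 2 were higher and 2 lower in P3 cells and 1 higher and 9 lower in EV cells. In study 2, 4 were higher and 6 lower in siWDR77 cells and 3 higher and 6 lower in siCtrl cells. TFAM, which packages the genome and starts its transcription, fell by 0.20 ± 0.058 in P3 (edgeR adjusted p = 0.0106), by 0.68 ± 0.059 in EV (edgeR adjusted p = 4.74e-13), by 0.38 ± 0.071 in siWDR77 (edgeR adjusted p = 8.16e-05) and by 0.26 ± 0.071 in siCtrl cells (edgeR adjusted p = 0.00319), all on the log2 scale. MGME1, a nuclease of mitochondrial DNA, fell by 0.28 ± 0.071 in P3 (edgeR adjusted p = 0.0033), 0.80 ± 0.073 in EV (edgeR adjusted p = 2.15e-12), 0.81 ± 0.12 in siWDR77 (edgeR adjusted p = 2.18e-06) and 0.53 ± 0.12 in siCtrl cells (edgeR adjusted p = 0.000435).

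Of 29 genes of mitochondrial RNA processing and stability, 2 were higher and 1 lower in P3 cells, 6 higher and 10 lower in EV cells, 6 higher and 3 lower in siWDR77 cells, and 8 higher and 3 lower in siCtrl cells. PDE12, which removes poly(A) tails from mitochondrial mRNAs, rose in all 4 arms, by 0.25 ± 0.056 in P3 (edgeR adjusted p = 0.000645), 0.52 ± 0.056 in EV (edgeR adjusted p = 1.26e-10), 0.75 ± 0.056 in siWDR77 (edgeR adjusted p = 2.44e-11) and 0.62 ± 0.056 in siCtrl cells (edgeR adjusted p = 9.63e-10). FASTKD5, which acts at mRNA junctions that no tRNA marks, rose by 0.38 ± 0.069, 0.56 ± 0.068, 0.71 ± 0.077 and 0.66 ± 0.077 in the same order of arms. REXO2, a nuclease that clears short RNAs, fell by 0.26 ± 0.061, 0.80 ± 0.062, 0.79 ± 0.064 and 0.87 ± 0.065 in that order. Each of these calls had an edgeR adjusted p of at most 0.00132.

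Of 13 mitochondrial translation factors, 2 were higher and 1 lower in P3 cells, 4 higher and 2 lower in EV cells, 3 higher and 2 lower in siWDR77 cells, and 4 higher and 2 lower in siCtrl cells. GFM1, an elongation factor of the mitochondrial ribosome, had the largest rise of these with R1881, at 0.67 ± 0.053 in P3 (edgeR adjusted p = 1.1e-13), 1.32 ± 0.053 in EV (edgeR adjusted p = 5.9e-24), 1.67 ± 0.061 in siWDR77 (edgeR adjusted p = 2.3e-17) and 1.56 ± 0.061 in siCtrl cells (edgeR adjusted p = 8.92e-17). Of 9 tested regulators of mitochondrial biogenesis, 0 were higher and 1 lower in P3 cells, 1 higher and 4 lower in EV cells, and 3 higher and 1 lower in each arm of study 2. ESRRA, a nuclear receptor that drives respiratory genes, rose by 0.34 ± 0.065 in siWDR77 (edgeR adjusted p = 9.58e-05) and 0.47 ± 0.065 in siCtrl cells (edgeR adjusted p = 1.19e-06).

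Between siWDR77 and siCtrl cells in R1881, 7.22% of all tested features were called, 3.9% higher and 3.31% lower. Of the 29 RNA processing and stability genes, 5 were lower there and 0 higher. They included LRPPRC, which stabilizes mitochondrial mRNAs, at -0.26 ± 0.056 (edgeR adjusted p = 0.00469), and TBRG4, a relative of FASTKD5, at -0.31 ± 0.069 (edgeR adjusted p = 0.0074). In the same R1881 comparison 2 of the 13 translation factors and 2 of the 9 biogenesis regulators were lower and 0 higher. Of the 16 genes of mitochondrial DNA maintenance and transcription, 1 was lower and 0 higher. In vehicle, where 1.53% of all tested features were called, 0 of the 29 were. No mitochondrially encoded gene was called in that R1881 comparison, as given above.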

How the data were processed

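One deposited table gives, for 24 libraries, unnormalized counts of reads on each gene, made from poly(A)-enriched RNA per the labels' protocols, which describe biological triplicates. Per the submitters' processing notes, bcl2fastq 2.20, STAR 2.7.9a, featureCounts of Subread 1.6.4 and GRCh38.p7 were used. For the annotation release, strand setting and handling of reads with several alignments, nothing is given in the sources used here. Columns of P3_R1881 also carry the word siRNA and were matched by sample number to titles that name P3 alone. All 37 gene IDs match GENCODE 29, whose transcripts gave the sequences.

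Each study's 12 libraries were fitted apart with edgeR 4.0.16 in R 4.3.3: TMM scaling, filterByExpr by group, group means and the robust quasi-likelihood F test. Benjamini-Hochberg adjustment ran over all 17772 and 17893 features tested, and a gene is called at an adjusted p under 0.05. SE comes from the F statistic. CPM uses TMM-scaled sizes. Shares carry no test. The script was tested on simulated counts. Alternatives were RLE, unscaled sizes, scaling from non-mitochondrial features, no filter, DESeq2 1.42.0, a term for runs of sample numbers, and leaving out each library. All tested members are named. Beyond them, context genes come from 8 textbook lists, from which up to 4 called genes with the smallest adjusted p could be named. Members and lists were chosen with earlier results of these data known.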

Additional observations from a re-analysis of the deposited data

Results flagged for a closer look

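The response of MT-ND5 to R1881 differed between P3 and EV cells, by -0.18 ± 0.066 on the log2 scale, in a test of the difference itself (edgeR adjusted p = 0.0448, 3 libraries per group). It was the 1 mitochondrially encoded gene of 33 for which the response passed this test in either study. Over all tested features 22.6% passed in study 1 and 0 in study 2. Under alternatives other genes passed too, MT-TQ in study 2 without the filter on low counts. In study 1, 2 genes passed without EV_R1881 S16 and 2 without P3_R1881 S34. The value of MT-ND5 ranged from -0.24 to -0.10 and its adjusted p from 0.00676 to 0.248 over the alternatives.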

How the results depend on the processing

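Of 5940 values of single genes under alternatives, 5742 kept their side of the threshold, 93 lost a call and 97 gained one. A further 8 changed sign with a call in either fit. Values that changed sign without a call in either fit are among the 5742. With unscaled library sizes the count of called genes was 3 for R1881 in P3, 9 in siCtrl, 6 for P3 against EV in vehicle, 5 in R1881 and 0 for the difference in response between P3 and EV. Over all features, 4536, 10479, 2489, 7342 and 4392 were called in the same order. Under that scaling R1881 in EV gave -0.13 for MT-RNR2, -0.14 for MT-CO1, -0.13 for MT-CO2 and -0.016 for MT-CYB, MT-ND3 was at -0.23 in siCtrl and MT-CO3 at -0.24 in siWDR77. Without the filter the counts were 0 for the difference between P3 and EV, 2 for siWDR77 against siCtrl in vehicle and 1 for their difference in response. Over all features they were 3771, 422 and 112. DESeq2 and the block for the run of sample numbers each gave 2 for R1881 in P3, and 3661 and 4291 over all features. Groups share no replicate number, and the labels do not say what a run of sample numbers marks. Each run holds a library of every group. Deviations correlated above 0.1 in 11 of 18 same-run and 2 of 36 other pairs in study 1, and in 9 of 18 and 7 of 36 in study 2. This did not hold for every same-run pair, and it does not settle whether the runs are a pairing. The fits given above carry no term for them, and the block stands as an alternative only. With it P3 against EV had 15 called genes in R1881 and 15 in vehicle, beside 12 and 14 without it. R1881 in EV had 7, beside 8 without it. Over all features the block gave 7123, 3717 and 9525 in these comparisons.

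Leaving out 1 library gave counts of 1 to 2 for R1881 in P3, 6 to 9 in EV, 4 to 15 in siWDR77 and 2 to 13 in siCtrl. Over all features the counts were 2956 to 3997, 8344 to 9361, 8698 to 9879 and 8127 to 9295 in that order. P3 against EV had 9 to 15 in R1881 and 9 to 14 in vehicle, with 9 without any 1 EV_vehicle library, and their difference in response 0 to 2. Over all features these were 5481 to 6826, 1344 to 3176 and 3506 to 4045. siWDR77 against siCtrl had 0 to 2 in vehicle and 0 to 0 in R1881, and 91 to 478 and 587 to 1983 over all features. The count for R1881 in siWDR77 was 9 without siCtrl_vehicle S21 and 15 without S35. Without S35, R1881 in siCtrl gave 0.17 for MT-RNR1 and 0.30 for MT-RNR2, and the lowest values with 1 library left out were -0.28 for MT-RNR1 (without siCtrl_vehicle S21) and -0.25 for MT-RNR2 (without S7). Counting protein genes alone, shares were 4.13% in P3_R1881, 4.34% in P3_vehicle, 4.42% in EV_R1881, 4.73% in EV_vehicle, 3.91% in siWDR77_R1881, 4.13% in siWDR77_vehicle, 4.13% in siCtrl_R1881 and 4.64% in siCtrl_vehicle. The mean share in siCtrl_vehicle was 5.62% to 7.125% when 1 library was left out. The causes were not tested, and 3 libraries per group and few tRNA counts limit precision.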
